A study of Homo sapiens with 10 samples.

Results

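The landscape of trimethylated lysine 27 of histone H3 (H3K27me3) in K562 cells was described from the single library of that mark, set against both libraries of untreated K562 H2AX. These are 3 of the 10 CUT&RUN libraries of the series, chosen by their titles. CUT&RUN tethers a nuclease to an antibody in permeabilised nuclei, so that the DNA near the bound chromatin is released and sequenced. K562 is an established human line of erythroleukaemia, with a Philadelphia chromosome formed from chromosomes 9 and 22. The H3K27me3 cells (n = 1, rabbit monoclonal antibody C36B11) had been exposed to a dose of 6 Gy of cobalt radiation 1 h earlier. The H2AX cells (n = 2) were untreated, and the antibody label of these libraries names a rabbit polyclonal against histone H4, so they serve as chromatin background whichever histone was bound. Mark, antibody and irradiation therefore cannot be told apart in this comparison, and an H3K27me3 library of untreated cells was not analysed here. H2AX of untreated HepG2 cells (n = 2), another line of the series, is given for side values and as an alternative background.

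H3K27me3 is written by Polycomb repressive complex 2, whose catalytic subunit is EZH2 or EZH1, and it is read by CBX proteins of Polycomb repressive complex 1. The reading subunit EED binds the mark and stimulates further methylation of neighbouring nucleosomes, which is how a domain can extend from its starting point along a chromosome. In differentiated and cancer cells the mark covers silent developmental regulators and forms broad domains, while transcribed chromatin carries little of it. The label of the library could not be checked at known Polycomb target genes, because a gene annotation of hg19, the build of the tracks, was not used here; regions are therefore given by position.

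Mean depth per base was 1.10 in the H3K27me3 track and 0.672 and 0.671 in the H2AX tracks. On read lengths of 60 bp and 41 bp, taken from the steps of thinly covered bins, this is the equivalent of 183 reads per 10-kb window for H3K27me3 and 164 for each H2AX library. The read length thus also differs between mark and background. Levels below are depth divided by the mean of the same track, and ratios are formed on level + 0.05, so they understate differences where the levels are near 0. Windows of 10 kb were used where at least 5 of the 10 bins were present and H2AX averaged at least 0.25, which left 274794 of 280007 windows.

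H3K27me3 was concentrated in a small part of the genome. The median level was 0.214, against 0.935 and 0.950 in the H2AX replicates, and 26.5% of 1-kb bins read exactly 0, against 2.001% and 1.97%. The highest 10% of windows held 50.5% of the H3K27me3 depth, while the highest 10% held 19.3% and 18.5% of the H2AX depth. The highest 1% of windows held 9.73% of the H3K27me3 depth and 3.39% and 3.26% of the H2AX depth. Neither H2AX replicate approached the concentration of the mark at any of these shares.

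The ratio of H3K27me3 to H2AX formed 2 populations of windows. The lower one peaked between log2 values of -3 and -2.75, a bin with 8.69% of windows, and the upper one between 1 and 1.25, with 3.32%. The minimum between them, from -1.25 to -1, held 2.56%, so the populations merge rather than separate. Ratios ran from -3.67 at the 5th percentile to 1.97 at the 95th, with a median of -1.91. The ratio of H2AX replicate 1 to replicate 2 ran from -0.44 to 0.38 between the same percentiles. The spread of the mark was therefore far wider than the spread between background replicates.

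**Figure D1:**
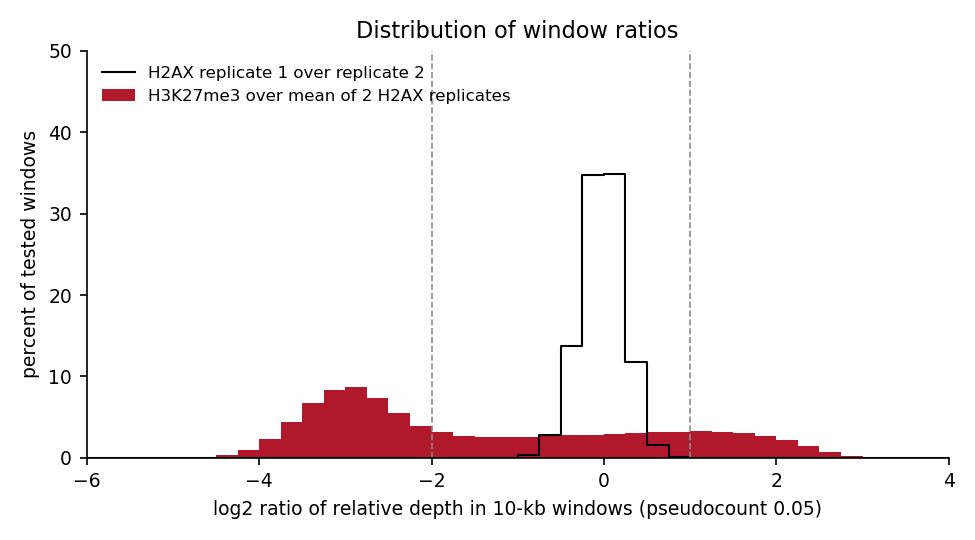
Percent of tested 10-kb windows (y axis) by log2 ratio of relative depth (x axis), for H3K27me3 over the mean of the H2AX replicates (red bars) and for H2AX replicate 1 over replicate 2 (black line); dashed lines mark the 2-fold and 0.25-fold limits. The red distribution has a low peak between -3 and -2.75 and a broad shoulder that peaks between 1 and 1.25, whereas the black line stays around 0.

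A window was called enriched when H3K27me3 was at least 2-fold over each H2AX replicate, and poor when it was at most 0.25-fold of each. With a single H3K27me3 library these are calls by size, without a test. Enriched windows numbered 43616, or 15.9% of those tested, and covered 436 Mb. Poor windows numbered 129337, or 47.1%. The other 37.1% lay between. The same folds applied to H2AX replicate 1 against replicate 2, in either direction, gave 111 windows (0.0404%) at 2-fold and 0 at 4-fold. Close to the limit, 5040 windows had a lower ratio between 2 and 2.2 and 5429 had one between 1.8 and 2, so the limit falls on a slope and not in a gap.

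Enriched windows had a median H3K27me3 level of 3.64 and H2AX levels of 1.08 and 1.04. In poor windows the H3K27me3 level was 0.0657, about 12 reads per window, and H2AX levels were 0.875 and 0.914. H2AX thus differed little between the classes, and the small difference ran in the same direction as the mark. Untreated HepG2 H2AX, from a line that did not enter the calls, read 0.977 and 0.951 in enriched windows and 0.981 and 0.991 in poor ones. Enriched windows held 63.9% of the H3K27me3 depth and poor windows 3.78%. At 1-kb resolution, 95.3% of bins in enriched windows lay above the track mean and 0.236% read 0, while 48.7% of bins in poor windows read 0. The same poor bins read 0 in 0.542% and 0.480% of cases in the H2AX replicates, so they were covered by sequence there.

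Gamma-H2AX at 1 h, the damage mark in irradiated K562 cells, had median levels of 0.508 and 0.340 in enriched windows and 1.08 and 1.18 in poor windows (n = 2). Those libraries share with H3K27me3 the irradiation and the 60-bp steps.

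Runs of enriched windows, bridging a single window that was not enriched, gave 8237 domains over 472 Mb. The median width was 30 kb, the quartiles were 10 and 70 kb, and the 90th percentile was 140 kb. Single-window domains made up 32.5% of the number but 5.68% of the length. Domains of at least 100 kb, called broad here, were 1489, or 18.1% of the number, and held 57.2% of the length. These broad domains occupied 9.81% of tested windows and held 41.7% of all H3K27me3 depth. Among them, 150 spanned at least 300 kb, 22 at least 500 kb and 1 more than 1 Mb.

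Wider domains were also higher. The median ratio to H2AX was 2.50-fold in domains of 10 kb, 2.77-fold at 20 to 40 kb, 3.03-fold at 50 to 90 kb, 3.31-fold at 100 to 190 kb, 3.597-fold at 200 to 290 kb and 3.94-fold at 300 kb and above. The ranges overlapped broadly, with 90% of domains of 10 kb lying between 2.10-fold and 3.84-fold and 90% of those of 300 kb and above between 2.99-fold and 5.08-fold. Across all 8237 domains, Spearman's rho of width and height was 0.47, a description only, since the same calls set both and a domain must pass 2-fold to exist. H2AX changed less, with a median of 0.975 in the narrowest class and 1.09 in the widest. HepG2 H2AX went the other way, from 0.979 and 0.963 to 0.937 and 0.906.

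**Figure D2:**
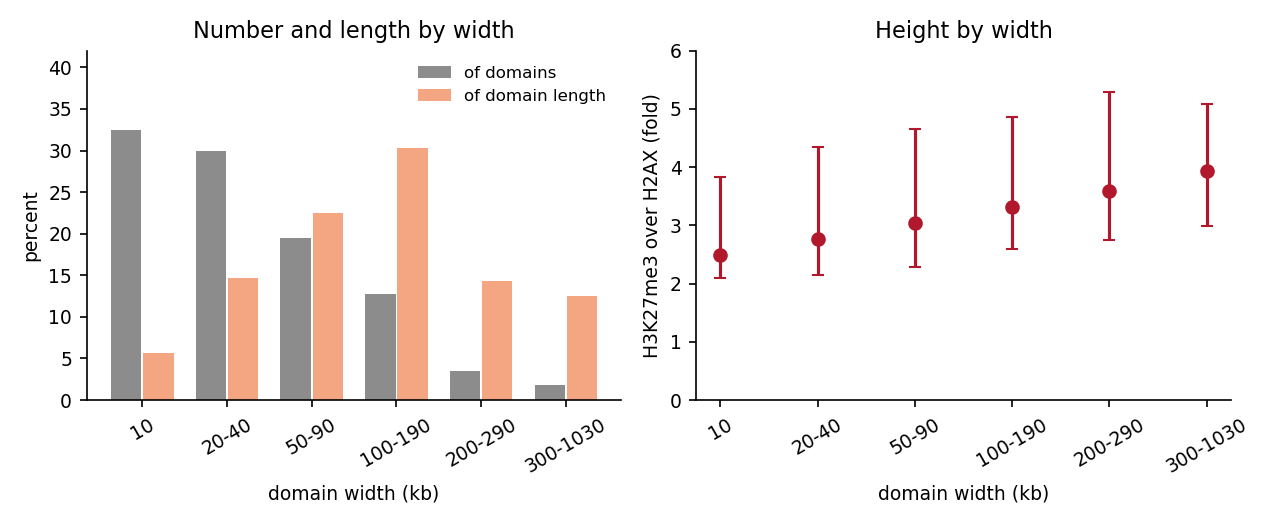
Left, percent of domains (grey) and of domain length (orange) by domain width in kb; right, median fold of H3K27me3 over H2AX by width, with bars from the 5th to the 95th percentile of domains. Single-window domains are 32.5% of the number and 5.68% of the length, and the median height rises from 2.50-fold to 3.94-fold.

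The widest domain lay on chromosome 2 from 121070001 to 122100000, 1030 kb in which 98 of 103 windows were enriched. H3K27me3 averaged 4.80 there and H2AX 1.03 and 0.968, a 4.63-fold ratio. Single windows within it ran from 1.22 to 8.54, so the level was uneven across the domain. The 1-Mb interval from 121000001 that contains most of it had the highest share of enriched windows of any, 88.0%.

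The next widest domain was on chromosome 9 from 137570001 to 138300000 (730 kb), where H3K27me3 read 3.95 and H2AX 0.939 and 0.872. It was followed by one on chromosome 22 from 48630001 to 49350000 (720 kb), with 2.18 against 0.560 and 0.531. That domain has a low H3K27me3 level in a segment of low H2AX, and its ratio of 3.74-fold was the lowest of the 10 widest. On chromosome 6 from 168380001 to 169050000 (670 kb) the levels were 4.73 against 0.887 and 0.832.

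3 domains spanned 610 kb. That on chromosome 1 from 2930001 to 3540000 read 6.31 against 1.16 and 1.05, a 5.52-fold ratio and the highest of the 10 widest. A second on chromosome 1, from 8970001 to 9580000, read 7.43 against 1.73 and 1.56, so a higher level there gave a lower ratio of 4.41-fold. The third, on chromosome 11 from 119470001 to 120080000, read 4.48 against 1.13 and 1.04.

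The last 3 of the 10 were narrower. Chromosome 9 held one of 600 kb between 136290001 and 136890000, at 5.12-fold. Another of 600 kb, between 49450001 and 50050000 on chromosome 16, stood at 3.89-fold. The one of 590 kb, between 109520001 and 110110000 on chromosome 2, stood at 4.23-fold. In all 10 the ratio was at least 3.65-fold against each H2AX replicate taken alone. Broad domains in general were interrupted: 71.1% contained at least 1 bridged window, and in the median broad domain the highest window read 3.05 times the lowest. The longest domain with every window enriched ran for 440 kb on chromosome 1 from 22860001 to 23300000, where H3K27me3 read 7.29 and H2AX 1.73 and 1.53.

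**Figure D3:**
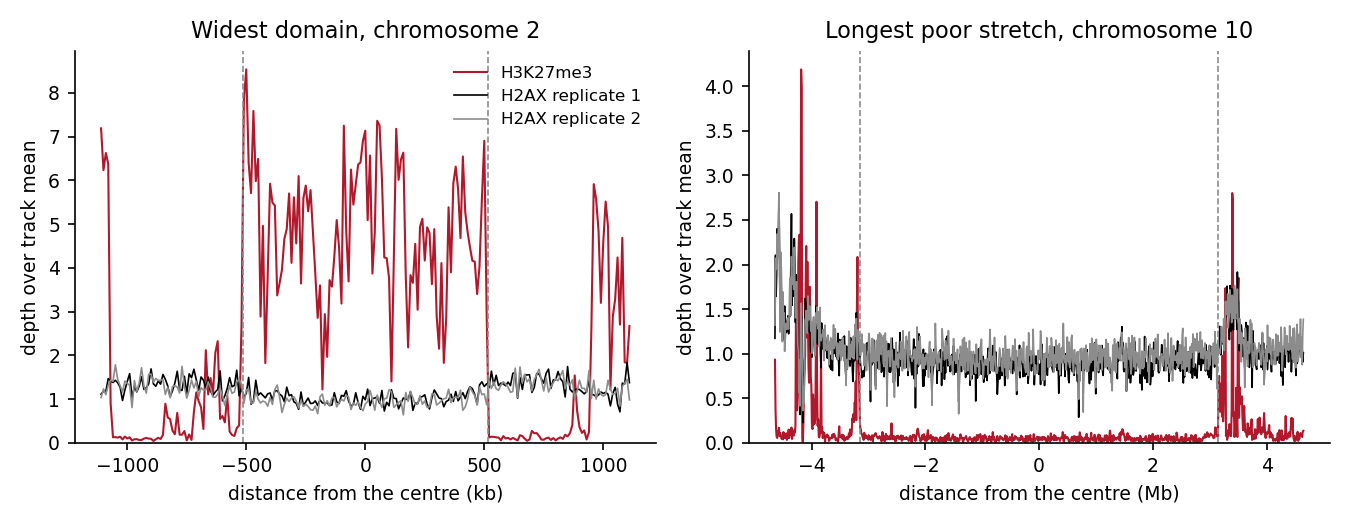
Depth over the track mean in 10-kb windows (y axis) for H3K27me3 (red) and the H2AX replicates (black and grey) by distance from the centre of the widest domain (left, in kb) and of the longest poor stretch (right, in Mb); dashed lines mark their ends. H3K27me3 averages 4.80 across the domain and 0.0525 across the poor stretch, while H2AX stays near 1 in both.

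The 10 highest and the 10 widest domains shared no member, but some were neighbours. The high domain on chromosome 6 from 168040001 to 168210000 lay near the wide one that begins at 168380001. Of domains of at least 50 kb, the highest ratio was on chromosome 6 from 170720001 to 170800000 (80 kb), where H3K27me3 read 6.69 and H2AX 0.950 and 0.875, a log2 ratio of 2.81. Close behind was an 80-kb domain on chromosome 20 from 61140001 to 61220000, with 6.46 against 0.971 and 0.791. The fold over the separate H2AX replicates was 6.74 and 7.28 in the first and 6.38 and 7.74 in the second, so the order of these neighbours is within the background spread. The other domains among the 10 highest had ratios from 6.58-fold to 6.78-fold, on chromosomes 6 (3 domains), 1 (2), 7 (2) and 13 (1). The domain with the highest level of the 10 was on chromosome 7 from 140220001 to 140370000, which read 13.4 against 2.001 and 1.88. HepG2 H2AX read 0.917 and 0.898 there.

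The end of the long arm of chromosome 6 was singled out after its values were seen. Between 160000001 and 171115067, which is 0.385% of tested windows, lay 8 of the 10 and 21 of the 100 windows with the highest ratios. The highest window of all, from 170550001 to 170560000, read 9.72 for H3K27me3 and 0.678 and 0.846 for H2AX, a 12.03-fold ratio. In this end segment 37.9% of windows were enriched, with a median of 4.48-fold in those windows, against 14.1% and 3.17-fold on the rest of the chromosome. Over the last 5 Mb of all 23 chromosomes 36.9% were enriched, so that share is not particular to chromosome 6. H2AX averaged 0.926 and 0.927 in the segment and 1.14 and 1.16 on the rest.

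The very highest levels before division lay where H2AX itself was high. Less extreme levels did not need such H2AX: in the 492 windows with an H3K27me3 level of at least 10, mean H2AX had a median of 2.01. On chromosome 1, which held 143 of these windows, it was 1.65. The highest 10 bins of 1 kb all lay in a single domain on chromosome 9 from 133770001 to 134000000. This 230-kb domain averaged 57.6 for H3K27me3, 9.49 and 8.72 for K562 H2AX, and 0.832 and 0.812 for HepG2 H2AX. Its ratio to K562 H2AX was 6.30-fold, below those of the 10 highest domains, so division by H2AX took out most of this height. Its highest bin, from 133797001, reached 111 times the track mean against 8.77 and 10.3 in H2AX.

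Windows with a mean H2AX level of at least 4 numbered 689 and differed between chromosomes. On chromosome 22, 142 of 371 (38.3%) were enriched, with median levels of 6.75 for H3K27me3 and 6.73 and 6.30 for H2AX. On chromosome 9 it was 24 of 59 (40.7%). On chromosome 13, 0 of 256 were enriched, and H3K27me3 read 0.361 where H2AX read 4.26 and 4.56. Among all tested windows the enriched share was 29.9% on chromosome 22, 18.1% on chromosome 9 and 13.5% on chromosome 13. Of the 689 windows, 24.2% were enriched and 52.5% poor, against 15.9% and 47.1% of all tested windows. Windows of high H2AX thus included enriched ones on 2 of these 3 chromosomes. Whether H2AX there follows copy number was not tested.

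Borders of broad domains were steep. Over 2824 borders with 100 kb of tested windows outside, the median ratio was 3.48-fold in the second window inside, 3.01-fold in the outermost window, 1.31-fold in the first window outside and 0.784-fold in the next. The fall at the border follows in part from the limit that defines it. Because single windows are bridged, neither of these 2 outside windows can be enriched. Further out the median rose again, to 1.07-fold from 90 to 100 kb outside. Beyond the border the outcomes diverged: from 40 to 50 kb outside, the lower quartile of the log2 ratio was -2.68 and the upper quartile 1.26. Poor chromatin was reached within 20 kb at 30.6% of borders and within 50 kb at 46.0%, while 41.04% met another enriched window within 50 kb. At 44.9% of borders no poor window followed within 100 kb.

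**Figure D4:**
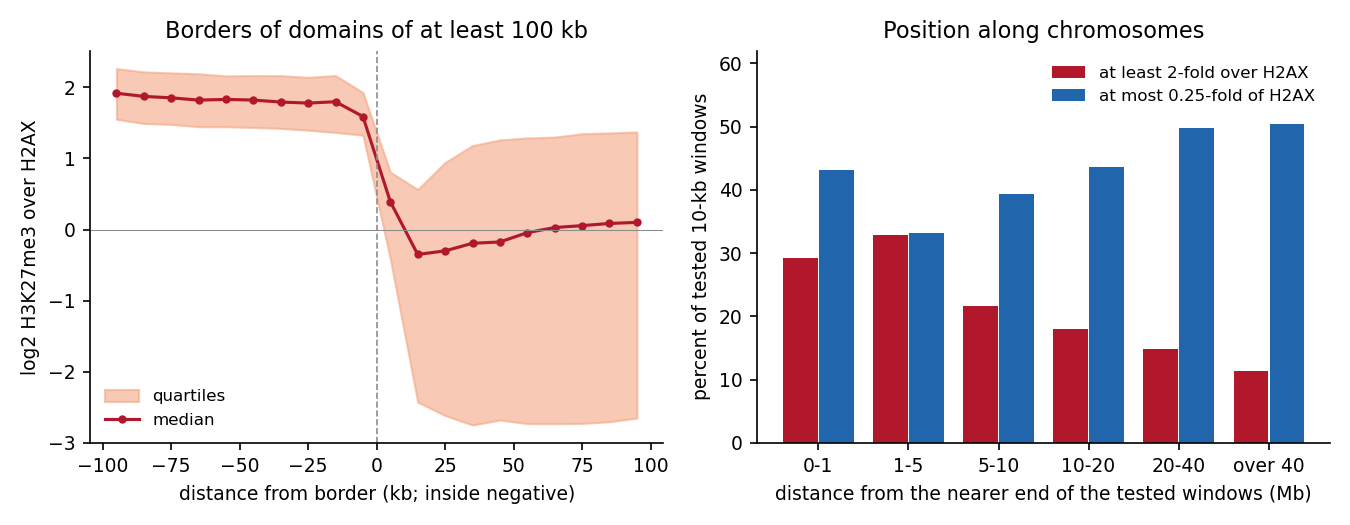
Left, median (line) and quartiles (band) of the log2 ratio of H3K27me3 to H2AX in 10-kb windows by distance from 2824 borders of broad domains, negative inside; right, percent of windows enriched (red) and poor (blue) by distance in Mb from the nearer end of the tested windows of a chromosome. The median drops from 1.59 in the outermost window to -0.35 in the second window outside and is 0.10 from 90 to 100 kb outside. Enrichment is most frequent between 1 and 5 Mb from an end, at 32.8%.

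Few domains stood alone in poor chromatin when the windows directly beside them were counted as flank. At borders of broad domains that first window was poor in 6.98% of cases, so the share below depends on counting it. Of 7935 domains with at least 8 of the 10 flanking windows tested, 169 (2.13%) had at least 80% poor windows within 50 kb on either side. These isolated domains had a median width of 70 kb and a median ratio of 3.75-fold, against 30 kb and 2.81-fold for the rest. The share that was isolated was 0.958% among domains of 10 kb and 8.45% among those of 300 kb and above. Domains of 10 kb had a median flank of 1.24-fold, and 56.8% of them had another enriched window within those flanks.

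The isolated domain with the highest ratio was on chromosome 6 from 149740001 to 149820000, which read 8.47 against 1.26 and 1.18, with flanks at 0.125-fold of H2AX. The widest isolated domain, on chromosome 1 from 226600001 to 227060000 (460 kb), read 6.498 against 1.65 and 1.59, with flanks at 0.154-fold. A 420-kb domain on chromosome 13 from 98680001 to 99100000 read 2.92 against 0.702 and 0.697, with flanks at 0.147-fold. In these 3 regions the mark went from several-fold above H2AX to several-fold below it within 50 kb.

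Domains lay in neighbourhoods. The median distance between neighbouring domains was 70 kb, and 44.9% lay within 50 kb of the next, while 468 gaps exceeded 1 Mb. Given an enriched window, the window 10 kb further was enriched in 73.3% of cases, at 100 kb in 42.98% and at 1000 kb in 25.1%, against 15.9% over all windows. Pearson's r of the log2 ratio between windows was 0.90 at 10 kb, 0.51 at 100 kb and 0.19 at 1000 kb. For the ratio of H2AX replicate 1 to replicate 2 it was 0.11, 0.09 and 0.07. These correlations are across windows of the same libraries and are given as a description.

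In intervals of 1 Mb, enrichment ranged from absent to nearly complete. Of 2785 intervals with at least 50 tested windows, 786 (28.2%) had 0 enriched windows and 174 (6.25%) had at least 50% enriched. Those 174 held 23.1% of all enriched windows. After the interval on chromosome 2, the highest shares belonged to the intervals that begin at 77000001 on chromosome 17 (83.1%), 86000001 on chromosome 16 (82.0%), 1000001 on chromosome 8 (80.8%) and 112000001 on chromosome 13 (80.2%). In the interval on chromosome 13 the H3K27me3 level was 2.26 and H2AX was 0.619 and 0.581, so its enrichment rests on a low background as well as on the mark. The other end of the scale held 354 intervals in which at least 90% of windows were poor.

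Enrichment was denser towards chromosome ends. Within 5 Mb of the first or last tested window, 32.1% of windows were enriched and 35.1% poor, against 14.5% and 48.1% elsewhere. The enriched share was higher near the ends on 22 of 23 chromosomes, chromosome 3 being the exception. The poor share was lower near the ends on 18 of 23, with chromosomes 3, 16, 17, 19 and X as exceptions. On chromosomes 13, 14, 15 and 22 the first tested window lies beside the centromere, so the last 5 Mb was also taken alone: 36.9% of its windows were enriched, and the share was above that of the rest on all 23 chromosomes. H2AX medians were 0.993 and 0.950 near the ends and 0.930 and 0.950 elsewhere. Beyond 40 Mb from an end 11.4% of windows were enriched. The part of base composition in this gradient was not tested.

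With levels relative to track means, poor chromatin formed longer runs than enriched chromatin. There were 9369 poor stretches with a median width of 50 kb, and 226 of them spanned at least 1 Mb, against 1 domain of that width. The 226 long stretches covered 419 Mb, or 15.2% of the tested length. Their median H3K27me3 level was 0.0520 and their median H2AX levels 0.685 and 0.750. With a pseudocount of 0.2 only 2 stretches of at least 1 Mb remained, because that pseudocount raises the lowest ratio that a window can reach. Under median-of-ratios scaling the comparison turned round, with a widest domain of 2750 kb and a longest poor stretch of 330 kb.

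The longest poor stretch ran for 6.30 Mb on chromosome 10 from 53520001 to 59820000. H3K27me3 read 0.0525 there and H2AX 0.891 and 0.964, and no single window exceeded 0.218 for H3K27me3. This stretch, or a part of it, was the longest in 9 of 15 other settings. With 20-kb windows a stretch of 8160 kb on chromosome 4 was longer, as were stretches there of 8260 kb for the H3K27me3 level alone, 8150 kb with bridging of 2 windows and 8200 kb with HepG2 H2AX as background. The next in the reported setting was on chromosome 4 from 62080001 to 67940000 (5.86 Mb), with 0.0426 against 0.637 and 0.702. Chromosome 1 held a pair, from 78660001 to 84250000 (5.59 Mb), with 0.0466 against 0.651 and 0.709, and from 187040001 to 192460000 (5.42 Mb), with 0.0745 against 0.954 and 1.04. A stretch on chromosome 8 from 111000001 to 116140000 (5.14 Mb) read 0.0490 against 0.831 and 0.919. HepG2 H2AX read between 0.874 and 1.06 in all 5, so these segments are represented in both lines.

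Chromosomes differed 3-fold in the share of enriched windows. Chromosome 22 had the highest share, 29.9%, followed by chromosomes 20 and 17 (25.9% each), 16 (22.4%) and 15 (22.3%). The lowest were chromosome 4 (9.58%), X (10.7%) and 3 (11.3%). The low place of X, number 22 of 23, did not hold under every setting: it was number 18 at an H2AX level of at least 0.5, number 11 with HepG2 H2AX as background and number 9 under median-of-ratios scaling. The median over 23 chromosomes was 15.9%. Without the 371 windows of high H2AX, chromosome 22 still had 28.9% enriched, and its mean level fell from 2.45 to 1.30.

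Within enriched windows height varied far less than coverage, but the 2-fold limit on those windows narrows its range. Over all tested windows, mean H3K27me3 over mean H2AX, without a pseudocount, ran from 0.734-fold on chromosome 4 to 1.55-fold on chromosome 22. The median ratio within enriched windows lay between 2.93-fold on X and 3.69-fold on chromosome 22, and median domain width was between 20 and 50 kb on every chromosome, the highest on chromosome 20. Broad domains numbered 1.12 per Mb tested on chromosome 22, 0.955 on chromosome 20, 0.939 on chromosome 17, and 0.256 on chromosome 4. Chromosome 1 carried the most domains of at least 300 kb, 21, and chromosomes 19 and X had 1 each.

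Low coverage by domains and a large poor share were related but not the same. Chromosome 4 was first in poor windows (56.2%) and had 27 poor stretches of at least 1 Mb, which made up 29.5% of its tested length. Chromosome 21 was next with 54.4% poor, yet 17.0% of its windows were enriched, so that its windows fell mostly into the extremes and only 28.6% lay between. Chromosome 19, known for its density of genes and its clusters of zinc finger genes, had 50.3% poor and 16.8% enriched, and a single poor stretch of at least 1 Mb, from 20670001 to 23470000. Chromosome 22 had 0 such stretches. Chromosome 16 had the smallest poor share, 37.7%, and chromosome 18 had 49.4% poor, with 10 long stretches over 27.7% of its length.

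The X chromosome had the largest share of windows between the limits, 49.3%, against 36.4% on the autosomes. Its enriched windows had a median level of 2.22, against 3.70 on the autosomes, while the ratios were 2.93-fold and 3.29-fold. Over all tested windows, H2AX medians were 0.579 and 0.598 on X and 0.960 and 0.974 on the autosomes. In the enriched windows of X the median of mean H2AX was 0.713. The replicate medians in enriched windows of all chromosomes were 1.08 and 1.04, so much of the lower level was shared with the background. The larger share between the limits was seen under all settings tried, from 88.7% against 65.0% with a pseudocount of 0.2 to 53.7% against 52.9% under median-of-ratios scaling. The poor share of X, 40.01% against 47.5%, turned round when the H3K27me3 level was used without H2AX, to 57.1% against 51.9%. Its size also depended on the pseudocount, with 46.1% against 50.3% at 0.01 and 2.35% against 20.1% at 0.2.

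**Figure D5:**
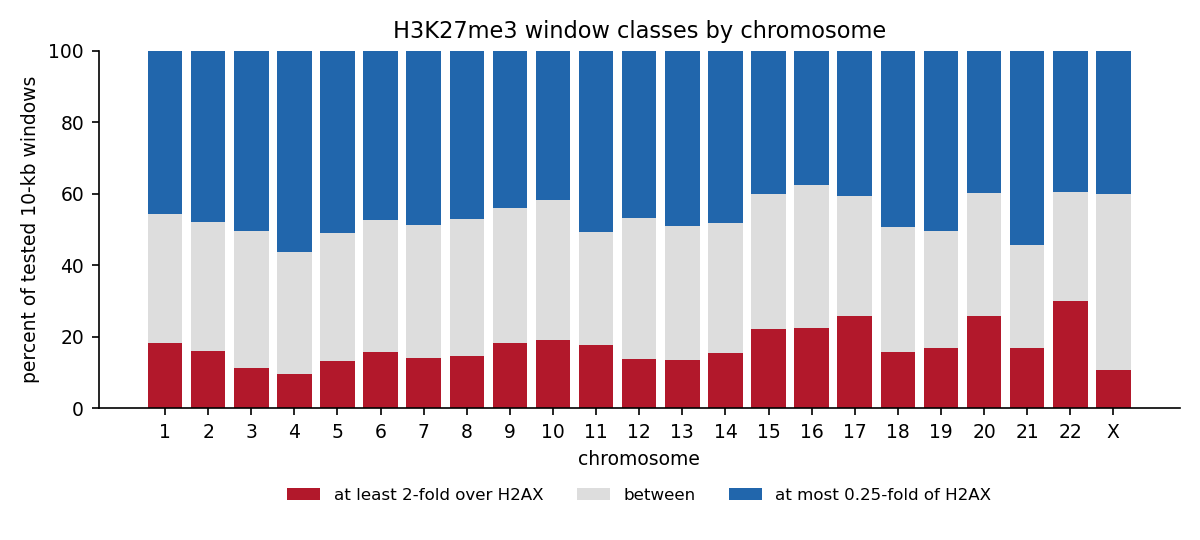
Percent of tested 10-kb windows (y axis) that were enriched (red), between the limits (grey) or poor (blue) on each chromosome (x axis). Enrichment runs from 9.58% on chromosome 4 to 29.9% on chromosome 22, and X has the tallest grey segment at 49.3%.

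All folds above are relative to track means. Median-of-ratios scaling, which sets the typical window of each track equal, raised H3K27me3 relative to H2AX by 2.12 on the log2 scale before the pseudocount. The median log2 ratio over windows rose from -1.91 to -0.01, and ratios near the floor rose by less because of the pseudocount, so which windows count as above H2AX depends on the scaling. Under median-of-ratios scaling 39.6% of windows were enriched, chromosome 16 had the highest share (51.9%) and chromosome 22 was number 4, while chromosome 4 remained lowest (30.2%). At a limit of 3-fold 8.35% of windows were enriched and X had the lowest share (3.86%).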

How the data were processed

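Per-base read coverage is what the deposited tracks give, averaged over bins of 1 kb and not scaled to library size, as the values show. Per the submitters' processing notes the build was hg19 and the tools BWA 0.7.12, SAMtools and MACS2, given without roles or settings. The H3K27me3 track and the 2 K562 H2AX tracks were used, with K562 gamma-H2AX at 1 h and HepG2 H2AX for side values; the other tracks and the peak lists were not used. Each track was divided by its mean without chromosome Y and averaged in 10-kb windows (pseudocount 0.05, minimum H2AX level 0.25). Of the thinly covered bins (above 0 and below 250 thousandths), 63.7% fell on multiples of 60 bp in the H3K27me3 track and 59.3% and 59.0% on multiples of 41 bp in the H2AX tracks. The H2AX replicates differed by 2.41 times the variance of sampling alone and were kept as 2 libraries; the labels do not say that they are separate cultures.

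With 1 H3K27me3 library no test or p-value was possible, and calls are by size. In simulated tracks of 280007 windows for this comparison, all 200 planted domains of each width (10, 50 and 200 kb) were recovered at 3-fold and at 6-fold, 0 at 1.5-fold, with 0 false windows. The simulation holds sampling noise only. Outside the planted domains its H3K27me3 was set far below H2AX, so the 0 false windows were fixed in advance. No fold between 1.5 and 3 was planted, so it does not show how windows near the 2-fold limit are called. Named regions are the 10 widest domains, the 10 highest of at least 50 kb, the 5 longest poor stretches and the 5 intervals of 1 Mb with most enriched windows; other regions were named after their values were seen. Regions and rules were chosen with earlier results of these data known. Gene assignments and sequences were not used, since the gene tables are of another build. Computations used pandas 2.3.3 and numpy 2.4.6 under Python 3.11.15, with matplotlib 3.10.9 for plots and scipy 1.17.1.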

Additional observations from a re-analysis of the deposited data

How the results depend on the processing

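Across 15 other settings, of which 1 was chosen after seeing the data (HepG2 H2AX as background), 63 of 75 recomputed values stayed within 1.5 times the reported one and 12 did not. A limit of 3-fold gave 230 Mb enriched, 6.46 Mb on chromosome 22 (9.88 Mb reported) and 641 broad domains. Median-of-ratios scaling gave 1070 Mb, 16.0 Mb on chromosome 22, 3193 broad domains and 0 poor stretches of at least 1 Mb. Windows of 5 kb gave 14752 domains and 124 such stretches, and windows of 20 kb gave 4836 domains. No bridging gave 94 long poor stretches and a pseudocount of 0.2 gave 2. Leaving out either H2AX replicate gave 465 to 473 Mb enriched, 8431 to 8566 domains, 1607 to 1634 broad domains, 10.3 to 10.6 Mb on chromosome 22 and 235 to 251 long poor stretches. Chromosome 22 had the highest enriched share in 14 of 15 settings and chromosome 4 the lowest in 12; with HepG2 H2AX as background it was chromosome 13 (9.17%). The domain on chromosome 2 was the widest in 12 of 15, and the longest poor stretch was on chromosome 10 in 9 of 15. Poor windows hold about 12 H3K27me3 reads, so differences among them are limited by depth. No paired analysis was possible because there is a single H3K27me3 library, which shares only the number 1 with an H2AX replicate.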
